A study of Mus musculus with 22 samples.

Results

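A group of genes of the signalling route that builds the blood-brain and blood-spinal cord barrier was followed through RNA counts of sorted cells from mouse embryos at E12.5. They are the 10 genes named Wnt7a, Wnt7b, Ndp, Fzd4, Lrp5, Lrp6, Adgra2, Reck, Tspan12 and Ctnnb1 among 55376 counted genes, taken by name with no use of their values: 3 ligands, 6 receptor-complex genes and 1 intracellular effector. Wnt7a and Wnt7b are secreted by neural progenitors and neurons of the developing central nervous system and act on the vessels that grow in. On endothelial cells, which line the vessels, RECK binds the WNT7 ligands and works with the adhesion receptor GPR124, the product of Adgra2, to pass them to Frizzled receptors and their co-receptors LRP5 and LRP6. Norrin, the product of Ndp, is not a Wnt but binds FZD4 with LRP5 and is helped by the tetraspanin TSPAN12. Both routes keep beta-catenin, the product of Ctnnb1, from being degraded, and are known for the barrier state of brain and retinal vessels.

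Libraries of polyadenylated RNA formed a knockout series and a regional series. In the knockout series, motor neurons were sorted by an ISL1::GFP reporter and endothelial cells by a Kdr::Cherry reporter from spinal cord with its meninges, in wild-type embryos and in embryos with a Plxnd1 knockout, in batches 1 to 3. Plxnd1 is a receptor for class 3 semaphorins, and the deleted part of it is not given in the labels. For the regional series, Kdr::Cherry endothelial cells of wild-type embryos came from the spinal cord tissue or from the meninges, in batches 1 to 5, and the cord was its ventral part in batches 1 to 3 and the whole cord in batches 4 and 5. Each library pools embryos of 1 genotype, and p-values therefore speak of the spread among pools. Isl1 also marks some sensory and dorsal interneurons, and Kdr is also transcribed in early blood precursors, so neither reporter is limited to one cell type in all tissues.

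For wild-type endothelial batch 2, the counts equalled those of knockout endothelial batch 1 in all 55376 genes, whereas every other one of the 231 library pairs differed in at least 24532 genes. That library was not used, which leaves 2 wild-type endothelial libraries (batches 1 and 3) and 21 of 22 in all. Depth ran from 20680902 to 27035395 counts over the 11 libraries kept of the knockout series, and from 15685784 to 21493255 over the 10 regional libraries. The series were counted with different strand settings, and their levels were not compared. Plxnd1 was at 213 and 175 CPM (counts scaled to library size) in wild-type and at 28.9, 15.4 and 18.7 CPM in knockout endothelial libraries, and at 12.1, 5.14 and 7.80 CPM and 1.79, 0.65 and 0.77 CPM in wild-type and knockout motor neurons. Every knockout library lay below every wild-type library of its cell type.

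The sorted endothelial libraries held RNA of other cells. The summed level of 10 endothelial markers was 727.6 to 1128 CPM in wild-type endothelial libraries, against 15.6 to 28.5 CPM in wild-type motor neurons. In the same endothelial libraries 9 meningeal fibroblast markers summed to 9584 to 9652 CPM, 6 pericyte markers to 1097 to 1493 CPM and 10 neural progenitor markers to 646.2 to 1139 CPM. The wild-type endothelial libraries of the knockout series also held markers of red blood cells (7 genes, 11083 to 20712 CPM), macrophages (6 genes, 532.1 to 604.8 CPM) and neurons (8 genes, 539.8 to 1420 CPM). Schwann cell markers (6 genes) summed to 67.8 to 139 CPM there and to 59.8 to 101 CPM in wild-type motor neurons, and none passed between these cell types. In the regional series the endothelial sum was 1628 to 3616 CPM in spinal and 861.4 to 1784 CPM in meningeal libraries. Red blood cell markers summed there to 3949 to 43182 CPM in spinal and 6805 to 50315 CPM in meningeal libraries, and macrophage markers to 814.7 to 2629 CPM and 702.8 to 1160.3 CPM. No marker of any list was at 0 in all libraries of a group. In bulk RNA of this kind, a change in the number of cells of a type and a change in RNA per cell cannot be told apart.

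The annotated start regions of 4 genes that differed between cord and meninges are shown here, because 3 of them were higher in the cord and 1 lower. RefSeq start regions (GRCm38.p6, 250 bases before to 50 after a gene's start, read 5′ to 3′ on the gene's strand) were matched for 6 of the 10 genes, and not for Wnt7b, Lrp5, Lrp6 and Adgra2. Capitals mark the letters CTTTGT or CTTTGA, the core of the TCF/LEF recognition sequence through which beta-catenin acts, on either strand (read as ACAAAG or TCAAAG on the other strand). Of 27025 such regions, 31.3% hold at least 1 of these 6-letter runs. The regions of Wnt7a (chr6:91411304-91411603, minus strand), Ndp (chrX:16911725-16912024, minus strand), Tspan12 (chr6:21852484-21852783, minus strand) and Reck (chr4:43875280-43875579, plus strand) were as follows.
Wnt7a: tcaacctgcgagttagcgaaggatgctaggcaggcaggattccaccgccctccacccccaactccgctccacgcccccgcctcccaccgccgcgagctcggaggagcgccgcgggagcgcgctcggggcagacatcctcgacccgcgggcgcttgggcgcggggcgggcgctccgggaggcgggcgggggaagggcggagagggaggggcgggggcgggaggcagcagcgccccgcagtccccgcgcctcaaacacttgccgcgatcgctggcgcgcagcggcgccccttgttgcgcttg
Ndp: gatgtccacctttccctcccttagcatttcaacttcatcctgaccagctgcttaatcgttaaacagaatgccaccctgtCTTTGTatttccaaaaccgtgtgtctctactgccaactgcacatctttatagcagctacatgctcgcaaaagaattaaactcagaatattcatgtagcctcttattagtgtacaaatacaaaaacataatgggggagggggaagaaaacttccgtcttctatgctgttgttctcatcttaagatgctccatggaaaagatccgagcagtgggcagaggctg
Tspan12: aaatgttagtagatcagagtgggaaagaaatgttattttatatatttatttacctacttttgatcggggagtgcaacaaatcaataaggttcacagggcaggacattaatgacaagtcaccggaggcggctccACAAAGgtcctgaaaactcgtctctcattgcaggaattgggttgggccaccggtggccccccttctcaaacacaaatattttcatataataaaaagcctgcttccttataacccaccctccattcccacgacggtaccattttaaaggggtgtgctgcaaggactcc
Reck: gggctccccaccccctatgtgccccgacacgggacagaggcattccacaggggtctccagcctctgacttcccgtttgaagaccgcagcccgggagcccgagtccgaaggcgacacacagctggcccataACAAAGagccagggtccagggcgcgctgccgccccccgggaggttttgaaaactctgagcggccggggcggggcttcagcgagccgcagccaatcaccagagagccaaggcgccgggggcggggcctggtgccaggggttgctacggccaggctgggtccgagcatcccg
CTTTGT occurred once in the regions of Ndp, Tspan12 and Reck, 171, 117 and 120 bases before the start, and neither run occurred in those of Wnt7a, Fzd4 and Ctnnb1. The Wnt7a region held 42 CpG dinucleotides, more than 97.1% of all regions, and the Reck region 23. The Ndp and Tspan12 regions held 5 and 7, against a median of 7. A match describes letters only, and the regions of 3 of the 6 genes held one.

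The first comparison set endothelial cells of the cord against those of the meninges. All 3 ligand genes were higher in every spinal library than in every meningeal library, by log2 fold changes of 3.69 to 7.63, while the receptor-complex genes were split. In edgeR's quasi-likelihood test with Benjamini-Hochberg adjustment, 4 of the 10 genes were higher in the cord, 2 were lower and 4 did not pass, when 47.8% of the 16213 genes tested passed. In 1 direction, 24.8% of genes were higher and 23% lower. The groups did not overlap for 4 genes that were higher and 1 that was lower, when 19.2% and 17.4% of genes were apart in those directions. The median log2 fold change was 3.98 over the 3 ligands and 0.05 over the 6 receptor-complex genes, against 0.01 over all genes tested.

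**Figure D1:**
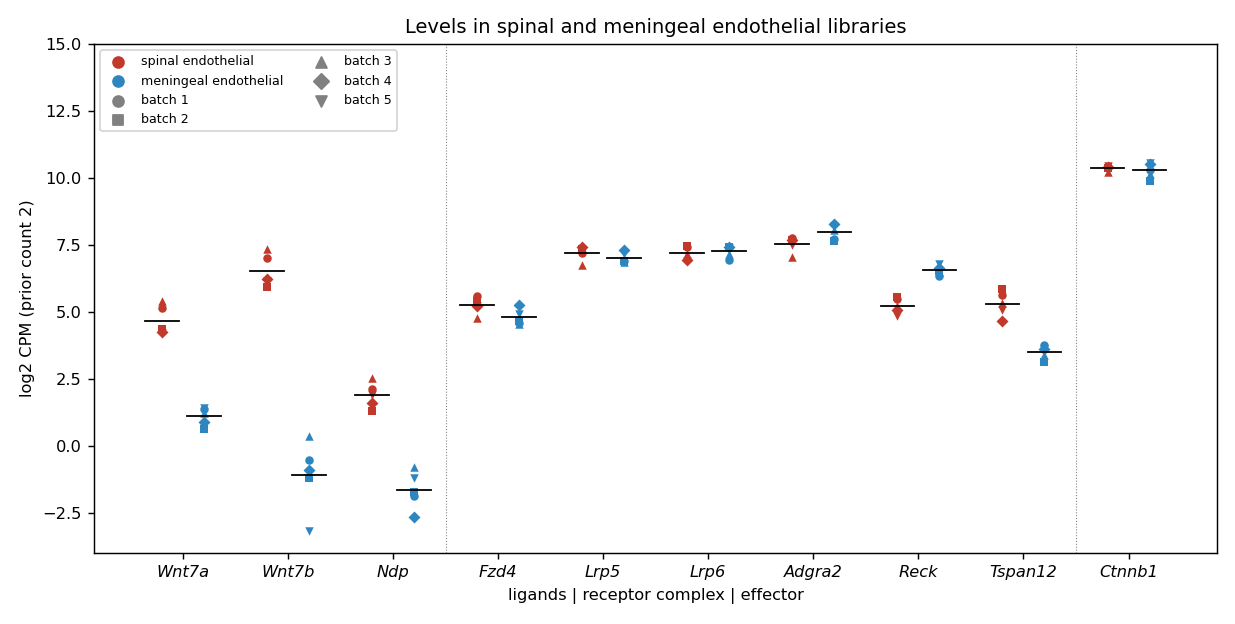
Level of each gene (log2 CPM with a prior count of 2, y axis) in each of the 10 regional libraries, with spinal endothelial libraries in red and meningeal ones in blue, marker shapes for batches and a black line for the group mean. The 3 ligands at the left and Tspan12 stand higher in all 5 spinal libraries, Reck stands lower, and the groups overlap for the other 5 genes.

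Wnt7b (chr15:85535437-85582473, minus strand) showed the widest gap of the 10 genes. Its levels were 129, 61.2, 160.4, 74.5 and 71.7 CPM in spinal batches 1 to 5 and 0.59, 0.32, 1.17, 0.43 and 0 CPM in meningeal batches 1 to 5. The meningeal libraries held 45 Wnt7b counts together, with 0 in batch 5, against 9411 in the spinal libraries, and the lowest spinal library lay far above the highest meningeal one. Wnt7b rose by a log2 fold change of 7.63 ± 0.50 (SE; edgeR adjusted p = 2.8e-07). Of its 4613 exon bases, 236 overlap AU022754 on the opposite strand.

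Wnt7a (chr6:91363981-91411363, minus strand) was at 35.5, 20.2, 42.2, 18.8 and 18.5 CPM in the spinal libraries and 2.47, 1.41, 2.22, 1.75 and 2.56 CPM in the meningeal ones. The groups did not overlap, and spinal batches 1 and 3 were the highest for Wnt7a as they were for Wnt7b. Wnt7a rose by 3.69 ± 0.29 on the log2 scale (edgeR adjusted p = 9.5e-07). The ratio of Wnt7b to Wnt7a CPM was 3.03 to 3.96 in the 5 spinal libraries and at most 0.53 in the meningeal ones, and per exon length, too, Wnt7b lay above Wnt7a in the cord and below it in the meninges. This ratio was not tested.

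Ndp (chrX:16885521-16911774, minus strand), the norrin gene, was also higher in the cord. It was at 4.27, 2.35, 5.67, 2.94 and 3.58 CPM in spinal and 0.16, 0.19, 0.47, 0.05 and 0.32 CPM in meningeal libraries, on 356 and 21 counts in all. No meningeal library reached the lowest spinal one, and the log2 fold change was 3.98 ± 0.44 (SE; edgeR adjusted p = 1.2e-05).

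Within the 5 batches, the log2 difference between cord and meninges was 6.97 to 9.36 for Wnt7b, 2.80 to 4.18 for Wnt7a and 3.03 to 4.29 for Ndp, so each ligand was higher in 5 of 5 pairs. The Wnt7b value of 9.36 is from batch 5, where the meningeal count was 0.

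Markers of neural cells moved with the ligands. Of 10 neural progenitor markers 9 were higher in the cord, none was lower and 1 did not pass, and their summed level was 1046 to 1681 CPM in spinal and 493.7 to 570.9 CPM in meningeal libraries. Nes, which vascular cells also express, gave the largest part of the meningeal sum (332.4 CPM), and without it the sums were 627.9 to 1251 CPM and 177.6 to 242.0 CPM. Fabp7 alone gave the largest part of these, with means of 603.9 CPM in spinal and 119.9 CPM in meningeal libraries. All 8 neuron markers were higher as well, with sums of 1119 to 2513 CPM and 173.0 to 467.7 CPM. Spinal batches 1 and 3, highest in both Wnt7 genes, also had the highest progenitor sums, 1631 and 1681 CPM against 1046 to 1109 CPM in the other 3 spinal libraries. Per 100 CPM of progenitor markers without Nes, Wnt7b was at 9.06 to 12.8 CPM in the cord and 0 to 0.66 CPM in the meninges, and Wnt7a at 2.93 to 3.37 CPM and 0.78 to 1.32 CPM. Fabp7 weighs most in these ratios. Marker by marker, the median log2 fold change was 5.20 over the progenitor markers and 2.61 over the neuron markers. The ligands were at 7.63 for Wnt7b, 3.98 for Ndp and 3.69 for Wnt7a. The part of neural RNA in the ligand levels was not tested further.

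**Figure D2:**
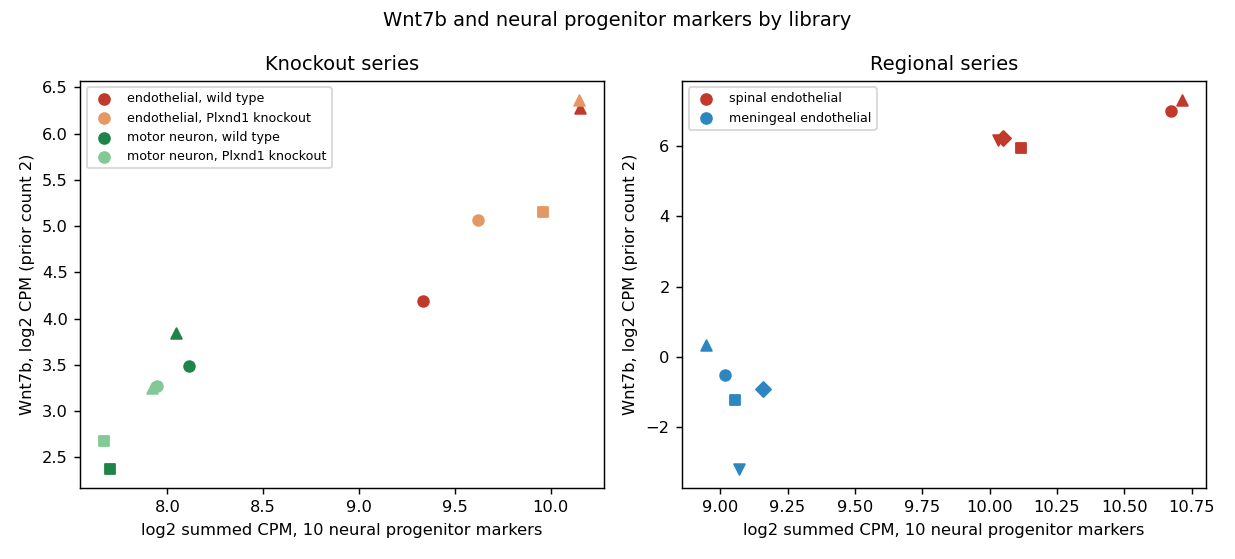
Wnt7b level (log2 CPM with a prior count of 2, y axis) against the summed CPM of 10 neural progenitor markers (log2, x axis) in each library of the knockout series (left) and the regional series (right). Colours give groups, and circles, squares, triangles, diamonds and inverted triangles give batches 1 to 5. The 2 libraries with the highest marker sums in each series also had the 2 highest Wnt7b levels, and the 5 meningeal libraries lie low on both axes.

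Among the receptor-complex genes, Tspan12 and Reck changed in opposite directions. Tspan12 (chr6:21771395-21852515, minus strand), the helper of norrin signalling, was at 48.9, 57.1, 40.1, 24.8 and 33.7 CPM in the cord and 13.5, 8.62, 10.4, 12.1 and 11.96 CPM in the meninges. The groups did not overlap, and the gene was higher by 1.85 ± 0.21 on the log2 scale (edgeR adjusted p = 1.6e-05). It was higher in 5 of 5 pairs, by 1.85, 2.71 and 1.94 within batches 1 to 3 and by 1.03 and 1.49 within batches 4 and 5. All 6 pericyte markers were higher too, with sums of 3610 to 9063 CPM in spinal and 1180 to 1589 CPM in meningeal libraries. Spinal batch 2 was the highest in both Tspan12 and the pericyte sum. Spinal batch 3 had the lowest spinal pericyte sum but more Tspan12 than batches 4 and 5. In the meninges batch 4 had the highest pericyte sum and batch 1 the highest Tspan12. Of the 10 endothelial markers, 7 were also higher in the cord and 3 did not pass. Most neural progenitor markers and all neuron markers were higher as well, as given above. Over the 10 regional libraries, Pearson's r of log2 Tspan12 was 0.952 with the pericyte sum and 0.758 with the endothelial sum. With the progenitor sum without Nes it was 0.940. These values mainly reflect the difference between cord and meninges. The part of any of these cells in the Tspan12 difference was not tested.

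Reck (chr4:43875530-43944806, plus strand), whose product binds WNT7, was at 44.6, 46.5, 37.4, 33.3 and 28.7 CPM in spinal and 81.7, 92.4, 89.5, 98.2 and 111 CPM in meningeal libraries. Each spinal library was below each meningeal one. Reck fell by 1.31 ± 0.14 on the log2 scale (edgeR adjusted p = 9.1e-06). The within-batch differences were -0.87, -0.99 and -1.26 in the ventral batches 1 to 3 and -1.56 and -1.96 in batches 4 and 5, and it was lower in 5 of 5 pairs. RECK is also made by fibroblasts, in which it holds back matrix proteases, and all 9 meningeal fibroblast markers were lower in the cord, with sums of 829.7 to 1511 CPM in spinal and 9454 to 12542 CPM in meningeal libraries. Within each region, the library with the highest Reck level had the highest or the second highest fibroblast sum. Whether fibroblast RNA sets the Reck level was not tested.

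**Figure D3:**
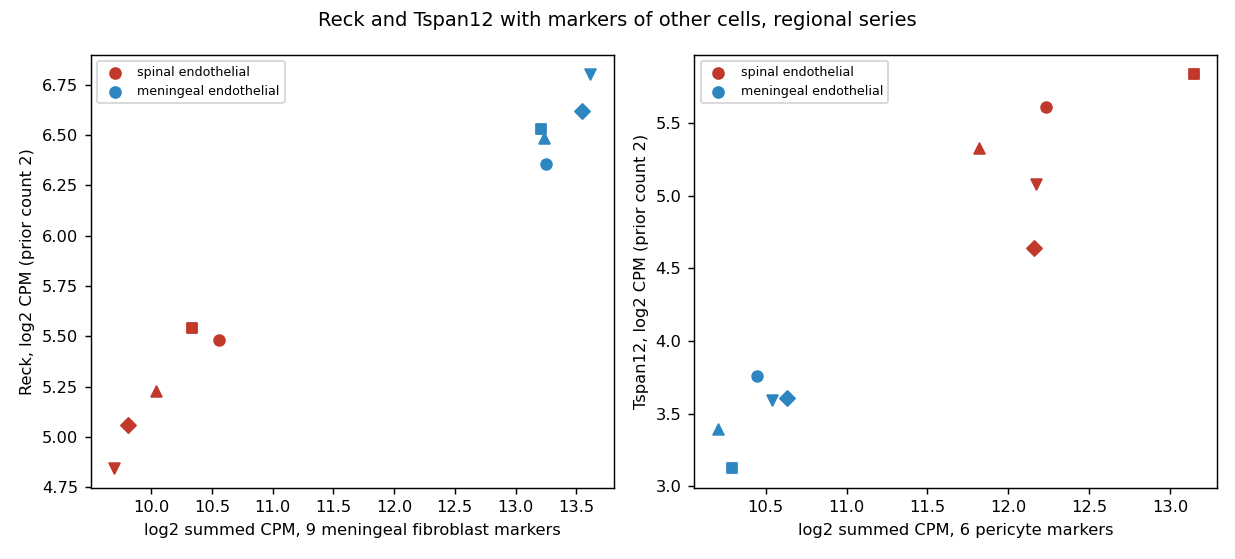
Left, Reck level against the summed CPM of 9 meningeal fibroblast markers; right, Tspan12 level against the summed CPM of 6 pericyte markers, both axes log2, for the 10 regional libraries (red spinal, blue meningeal; shapes as batches 1 to 5: circle, square, triangle, diamond, inverted triangle). Meningeal libraries stand high in Reck and fibroblast markers, and spinal libraries stand high in Tspan12 and pericyte markers.

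Adgra2 (chr8:27085583-27123436, plus strand), the GPR124 gene, was at 217, 203, 131, 207 and 182 CPM in spinal and 210.3, 200.3, 265, 313 and 298 CPM in meningeal libraries. The ranges overlapped, and spinal batch 3 was the lowest library. Adgra2 was lower in the cord by 0.45 ± 0.17 on the log2 scale, as a log2 fold change of -0.45 (edgeR adjusted p = 0.0384; 2.7e-05 to 0.231 over its alternatives). That call ended with batch as a block (adjusted p = 0.0636) and without meningeal batch 3, 4 or 5 or spinal batch 3 or 5 (adjusted p of 0.0501, 0.0956, 0.0914, 0.0550 and 0.0525). In the ventral batches 1 to 3 it was -0.33 (adjusted p = 0.231) and in the whole-cord batches 4 and 5 it was -0.67 (adjusted p = 2.7e-05), and the test of that difference did not pass (0.39 ± 0.29, adjusted p = 0.483). Over the regional libraries, Pearson's r of log2 Adgra2 was 0.703 with the fibroblast sum and -0.213 with the endothelial sum. The part of fibroblast RNA in the Adgra2 level was not tested.

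Fzd4 (chr7:89404355-89413134, plus strand), the Frizzled receptor that norrin binds, did not pass. It was at 47.7, 42.1, 27.3, 37.1 and 37.4 CPM in the cord and 23.9, 25.2, 23.1, 38.5 and 30.3 CPM in the meninges, with overlapping ranges and spinal batch 3 again the lowest spinal library. Its log2 fold change was 0.44 ± 0.17 (edgeR adjusted p = 0.0540), and it passed with batch as a block (adjusted p = 0.0485; 0.0126 to 0.507 over its alternatives). Leaving out meningeal batch 4 (0.58, adjusted p = 0.0126) or spinal batch 3 (0.52, adjusted p = 0.0180), or keeping only genes with a mean of at least 5 CPM (0.44, adjusted p = 0.0470), also brought it past the threshold. It was 0.66 in the ventral batches 1 to 3 (adjusted p = 0.0291) and 0.097 in the whole-cord batches 4 and 5 (adjusted p = 0.507), and the test of that difference did not pass (0.61 ± 0.29, adjusted p = 0.273).

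The co-receptor genes and the effector did not pass between regions. Lrp5 (chr19:3584828-3686564, minus strand), the co-receptor shared by norrin and Wnt signalling, was at 147, 163, 109, 170.2 and 149 CPM in spinal and 118, 119, 117, 159 and 144 CPM in meningeal libraries. Lrp6 (chr6:134446476-134566913, minus strand), the other Wnt co-receptor, was at 172, 178, 144, 123 and 119 CPM and 122, 171, 143, 169.5 and 166 CPM. Ctnnb1 (chr9:120933400-120960507, plus strand) was at 1339.8, 1311, 1191, 1368 and 1382 CPM and 1245, 952, 1130.2, 1483 and 1496 CPM. All 3 ranges overlapped, and the log2 fold changes of 0.17 ± 0.14, -0.07 ± 0.14 and 0.06 ± 0.15 did not pass (edgeR adjusted p = 0.334, 0.7101 and 0.746). Per 100 CPM of endothelial markers, Lrp5 was at 4.26 to 6.67 CPM in the cord and 8.91 to 13.7 CPM in the meninges. On that scale Fzd4 was at 1.03 to 1.68 and 2.15 to 2.77 CPM. Adgra2 was at 5.20 to 8.10 and 17.6 to 24.7 CPM, and Reck at 0.82 to 2.30 and 5.51 to 10.1 CPM. Tspan12, at 0.69 to 2.46 and 0.68 to 1.56 CPM, overlapped. The part of endothelial RNA in the receptor levels was not tested.

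The part of the cord differed between batches, and this touched several receptor genes. In batches 4 and 5, with whole cord, Lrp6 was lower in the cord by a log2 fold change of -0.49 (edgeR adjusted p = 1.0e-04), while in the ventral batches 1 to 3 it was 0.15 (adjusted p = 0.477; 1.0e-04 to 0.912 over its alternatives). Ctnnb1 was at -0.13 in batches 4 and 5. A direct test of the ventral against the whole-cord difference called 98 of 17901 genes, 0.547%, and none of the 10. The largest receptor differences in that test were 0.91 ± 0.31 for Tspan12, 0.75 ± 0.18 for Reck and 0.68 ± 0.20 for Lrp6, with edgeR adjusted p of 0.148, 0.0656 and 0.109. DESeq2 called Reck there (0.71, adjusted p = 0.0183) and edgeR with no filter called these 3 (adjusted p of 0.0186, 0.0166 and 0.0349). With batch as a block the test called 4 genes, and leaving out any 1 library other than spinal batch 3 moved its count by over 1.5 times (0 to 1190 genes). The dissection and the batch cannot be told apart.

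The second comparison set wild-type endothelial cells against wild-type motor neurons. Adgra2, Lrp5, Fzd4 and Reck were much higher in endothelial libraries, Ctnnb1 and Lrp6 were moderately higher, and of the ligands only Wnt7b passed the test. In edgeR 7 of the 10 genes were higher in endothelial cells, none was lower and 3 did not pass, when 64.8% of 19266 genes passed, 33.8% higher and 31% lower. The median log2 fold change was 2.58 over the 6 receptor-complex genes and 1.31 over the 3 ligands, against 0.02 over all genes tested.

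**Figure D4:**
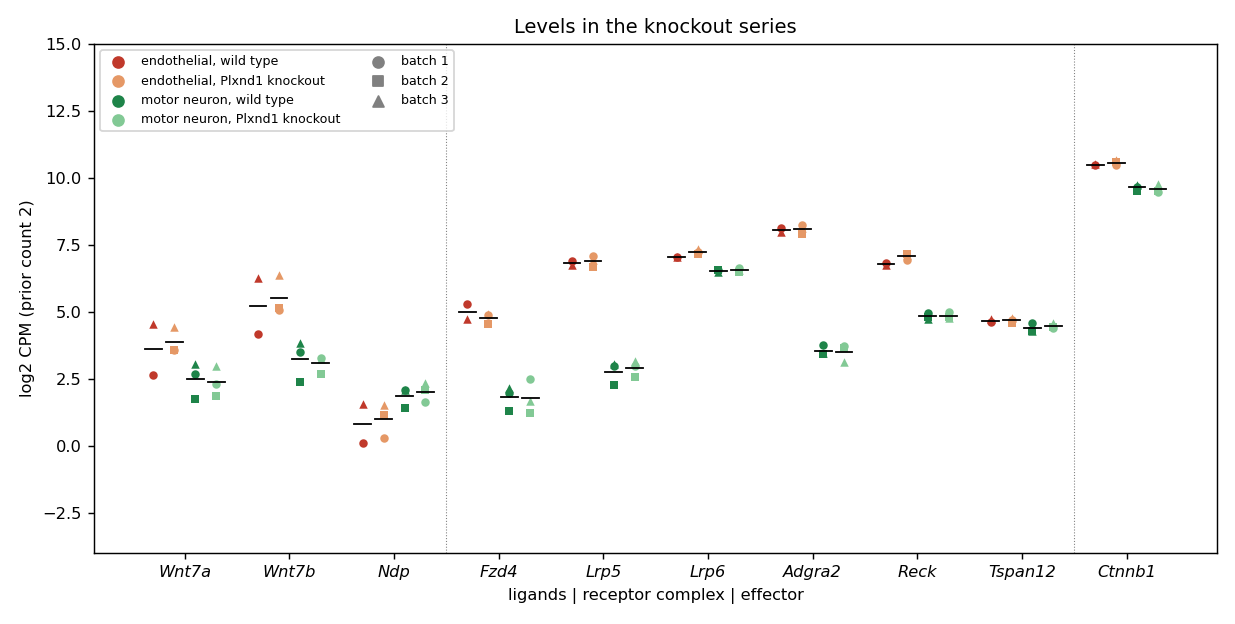
Level of each gene (log2 CPM with a prior count of 2, y axis) in each of the 11 libraries of the knockout series. Colours give cell type and genotype, shapes give batches 1 to 3 and black lines give group means. Fzd4, Lrp5, Adgra2 and Reck separate the cell types by wide gaps, wild-type and knockout libraries lie close together, and batch 3 is the highest endothelial library for Wnt7a and Wnt7b in both genotypes.

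Adgra2 had the largest difference of the 10. It was at 278 and 249 CPM in endothelial batches 1 and 3 and 13.4, 10.5 and 10.8 CPM in motor neuron batches 1 to 3, a log2 fold change of 4.51 ± 0.19 (SE; edgeR adjusted p = 3.7e-08). Lrp5 was at 120.2 and 109 CPM and 7.74, 4.71 and 8.13 CPM (4.05 ± 0.24, adjusted p = 2.6e-07). Fzd4 was at 39.3 and 26.2 CPM and 3.85, 2.40 and 4.36 CPM (3.20 ± 0.35, adjusted p = 1.9e-05). No motor neuron library came near an endothelial one for these 3 genes.

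Reck was at 114 and 109 CPM in endothelial and 31.2, 27.9 and 26.7 CPM in motor neuron libraries (1.96 ± 0.10, edgeR adjusted p = 1.6e-07). Ctnnb1 was at 1427 and 1468 CPM and 808, 737 and 858 CPM (0.85 ± 0.12, adjusted p = 1.4e-04), and Lrp6 at 131 and 130.3 CPM and 95.4, 94.9 and 88.6 CPM (0.49 ± 0.08, adjusted p = 4.2e-04). The groups were apart for all of these. Endothelial libraries also held all 9 fibroblast and all 6 pericyte markers at higher levels, with fibroblast sums of 125.3 to 247.3 CPM in wild-type motor neurons. The part of those cells in the receptor differences was not tested.

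Tspan12 was nearly level between the cell types. It was at 24.5 and 26.2 CPM in endothelial and 24.0, 19.6 and 19.2 CPM in motor neuron libraries, with both endothelial values above all 3 neuronal ones, and its log2 fold change of 0.27 ± 0.13 did not pass (edgeR adjusted p = 0.0799; 0.0180 to 0.280 over its alternatives). It passed at a filter of 5 CPM (0.32, adjusted p = 0.0374) and without motor neuron batch 1 (0.40, adjusted p = 0.0180). Without strand in these counts, the 98 exon bases that Tspan12 shares with Gm30270, the 73 that Adgra2 shares with Brf2 and the 236 of Wnt7b are regions where reads of either gene cannot be assigned.

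The ligands depended on the batch. Wnt7b was at 18.1 and 77.5 CPM in endothelial batches 1 and 3 and 11.1, 5.09 and 14.3 CPM in motor neuron batches 1 to 3. Both endothelial libraries were above all motor neuron libraries, and Wnt7b was higher by 2.23 ± 0.60 on the log2 scale (edgeR adjusted p = 0.0078; 3.2e-04 to 0.250 over its alternatives). Within batches the log2 difference was 0.70 in batch 1 and 2.43 in batch 3, and without endothelial batch 3 it was 0.83 and did not pass (adjusted p = 0.250).

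Wnt7a was at 6.22 and 23.3 CPM in endothelial and 6.27, 3.27 and 8.21 CPM in motor neuron libraries, and the groups overlapped. Its log2 fold change of 1.31 ± 0.55 did not pass (edgeR adjusted p = 0.0575; 0.0091 to 0.930 over its alternatives), and the within-batch differences were -0.01 in batch 1 and 1.496 in batch 3. It passed with batch as a block (0.93, adjusted p = 0.0279), in DESeq2 (adjusted p = 0.0334), with no filter (adjusted p = 0.0240), without motor neuron batch 3 (1.62, adjusted p = 0.0492) and without endothelial batch 1 (1.98, adjusted p = 0.0091).

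Ndp was the gene of the 10 with a negative difference. It was at 0.996 and 2.85 CPM in endothelial and 4.18, 2.55 and 4.19 CPM in motor neuron libraries, with overlapping ranges, and its log2 fold change of -0.92 ± 0.48 did not pass (edgeR adjusted p = 0.117; 0.0190 to 0.598 over its alternatives). With batch as a block it was -1.10 and passed (adjusted p = 0.0318), and without endothelial batch 3 it was -1.87 (adjusted p = 0.0190). The groups did not overlap for 8 of the 10 genes, all higher in endothelial cells, when 40.6% of genes were higher and apart.

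Neural progenitor markers again moved with the Wnt7 genes. Of 10 markers 7 were higher in endothelial than in motor neuron libraries, none was lower and 3 did not pass, with sums of 646.2 CPM in endothelial batch 1, 1139 CPM in batch 3 and 208.4 to 276.8 CPM in motor neurons. Endothelial batch 3, with the higher sum, also had the higher level of both Wnt7 genes and Ndp. Its neuron marker sum was higher too, 1420 CPM against 539.8 CPM in batch 1, with 10145 to 11665 CPM in wild-type motor neurons. Per 100 CPM of progenitor markers with Nes, Wnt7b was at 2.81 and 6.80 CPM in the endothelial libraries and 2.44 to 5.42 CPM in the motor neuron libraries, ranges that overlap. Without Nes, as between regions, it was at 5.11 and 9.32 CPM and 3.36 to 7.75 CPM, which overlap as well. The ratio of Wnt7b to Wnt7a CPM was 2.91 and 3.32 in endothelial and 1.56 to 1.77 in motor neuron libraries. The part of progenitor RNA in the Wnt7 levels was not tested further.

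Per exon length, the order of the genes differed between groups. On the RPKM scale (CPM per kilobase of exon), Ctnnb1 was the highest of the 10 in every group, at 399.5 ± 8.02 (SD, n = 2) in wild-type endothelial cells, 221 ± 16.8 (n = 3) in wild-type motor neurons, 363.9 ± 21.1 (n = 5) in spinal and 348.1 ± 64.4 (n = 5) in meningeal endothelial cells. In wild-type endothelial cells it was followed by Adgra2 at 45.7 ± 3.49 RPKM, Reck at 25.1 ± 0.80, Lrp5 at 19.0 ± 1.38 and Lrp6 at 13.9 ± 0.05, these 4 apart from one another. Wnt7b (10.4 ± 9.09) overlapped both of its neighbours in that order, Lrp6 and Tspan12 (10.2 ± 0.48), Fzd4 (4.88 ± 1.37) overlapped Wnt7a (4.66 ± 3.81), and Ndp was the lowest at 0.99 ± 0.67 RPKM.

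In motor neurons the order of receptors was another one. Lrp6 at 9.92 ± 0.40 RPKM and Tspan12 at 8.42 ± 1.07, whose ranges overlapped, came after Ctnnb1, then Reck at 6.45 ± 0.53. Wnt7b, Adgra2, Ndp, Wnt7a and Lrp5 lay at 2.20 to 1.14 RPKM and overlapped from each to the next, and Fzd4 was the lowest at 0.53 ± 0.15. The norrin receptor genes Fzd4 and Lrp5 had the 2 lowest means of the 10 in motor neurons. Ndp, at 1.88 ± 0.49 RPKM, was apart from Fzd4 and overlapped Lrp5.

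Between the regions the ligands changed their place among the receptors. In the cord Adgra2 (32.5 ± 5.93 RPKM), Lrp5 (24.5 ± 3.97), Wnt7b (21.5 ± 9.35), Tspan12 (16.4 ± 5.06) and Lrp6 (15.7 ± 2.90) overlapped from each to the next, followed by Reck (8.59 ± 1.70), Wnt7a (8.52 ± 3.48) and Fzd4 (5.70 ± 1.12), which also overlapped, and Ndp (1.94 ± 0.66). In the meninges all 6 receptor-complex genes lay above all 3 ligands. There Adgra2 was at 44.6 ± 8.78 RPKM, Lrp5 at 21.9 ± 3.20, Reck at 21.4 ± 2.51, Lrp6 at 16.5 ± 2.26, Tspan12 at 4.54 ± 0.74 and Fzd4 at 4.196 ± 0.96, with Lrp5 and Reck overlapping and Tspan12 and Fzd4 overlapping. Wnt7a was at 0.66 ± 0.15, Ndp at 0.12 ± 0.08 and Wnt7b at 0.11 ± 0.09 RPKM, the last 2 not apart.

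The third comparison asked what the Plxnd1 knockout did to these genes in each cell type. None of the 10 passed in endothelial cells, where edgeR called 0 of 18209 genes (0%; 431 at an unadjusted p under 0.05, and 30 by DESeq2), nor in motor neurons, where it called 2 of 16695 (0.012%). Plxnd1 itself did not pass in this fit (log2 fold change -3.20 ± 0.26, adjusted p = 0.161, in endothelial cells; -2.97 ± 0.46, adjusted p = 0.80, in motor neurons). With batch as a block it passed, at -3.04 ± 0.11 (edgeR adjusted p = 5.5e-15) and -2.998 ± 0.20 (adjusted p = 1.4e-04). The block gave counts of 180 and 6 genes (0.989% and 0.0359%), and none of the 10 genes.

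Knockout endothelial libraries held Wnt7a at 11.9, 11.7 and 21.3 CPM, Wnt7b at 33.4, 35.4 and 82.6 CPM and Ndp at 1.15, 2.16 and 2.79 CPM in batches 1 to 3. Batch 3 was the highest for all 3 ligands, as in wild type, and the genotypes overlapped. Their log2 fold changes were 0.03 ± 0.55, 0.08 ± 0.64 and 0.08 ± 0.54, and the progenitor sum was 788.1 to 1133 CPM in the knockout. Within batches, the Wnt7a difference was 0.93 in batch 1 and -0.13 in batch 3, that of Wnt7b 0.88 and 0.09, and that of Ndp 0.20 and -0.03. With batch as a block the Wnt7b difference was 0.46 ± 0.13 (edgeR adjusted p = 0.124).

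Of the receptor genes, Reck and Lrp6 were higher in all 3 knockout endothelial libraries than in both wild-type ones. Reck was at 123, 143 and 138 CPM in the knockout (0.28 ± 0.10; edgeR adjusted p = 0.999), and Lrp6 at 149, 144 and 164 CPM (0.22 ± 0.09; adjusted p = 0.999). Among all genes tested, 5.88% were higher and apart in this way. Within batches 1 and 3 the log2 differences were 0.12 and 0.34 for Reck and 0.18 and 0.33 for Lrp6.

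The other receptor genes and the effector overlapped between the genotypes in endothelial cells. In the knockout Adgra2 was at 304, 239.8 and 281 CPM (0.06 ± 0.13), Lrp5 at 136, 102 and 121 CPM (0.07 ± 0.14) and Fzd4 at 29.3, 23.2 and 29.9 CPM (-0.25 ± 0.21). Tspan12 was at 25.9, 23.7 and 27.2 CPM (0.02 ± 0.13) and Ctnnb1 at 1411, 1535 and 1617 CPM (0.08 ± 0.13). All differences in brackets are log2 fold changes with their SE, and each edgeR adjusted p was 0.999.

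In knockout motor neurons all 10 genes overlapped with wild type, when 4.86% of the genes tested did not. Wnt7a was at 4.86, 3.51 and 7.79 CPM (-0.14 ± 0.38), Wnt7b at 9.60, 6.34 and 9.45 CPM (-0.27 ± 0.35) and Ndp at 3.03, 4.197 and 4.93 CPM (0.15 ± 0.28). Lrp6 was at 99.8, 89.4 and 94.1 CPM (0.02 ± 0.07), Reck at 32.0, 27.6 and 27.4 CPM (0.02 ± 0.11), Tspan12 at 20.9, 21.7 and 23.7 CPM (0.07 ± 0.12) and Ctnnb1 at 717, 738 and 873 CPM (-0.05 ± 0.11). The endothelial receptor genes stayed low, with Adgra2 at 13.0, 12.6 and 8.64 CPM (-0.02 ± 0.19), Lrp5 at 7.77, 5.81 and 8.94 CPM (0.13 ± 0.25) and Fzd4 at 5.53, 2.26 and 3.08 CPM (0.03 ± 0.37). Each edgeR adjusted p was 0.9997. A test of the difference between the knockout effects of the cell types called 0 of 19266 genes (0%; 1 by DESeq2), and the 10 lay between -0.28 ± 0.47 for Fzd4 and 0.35 ± 0.82 for Wnt7b.

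**Figure D5:**
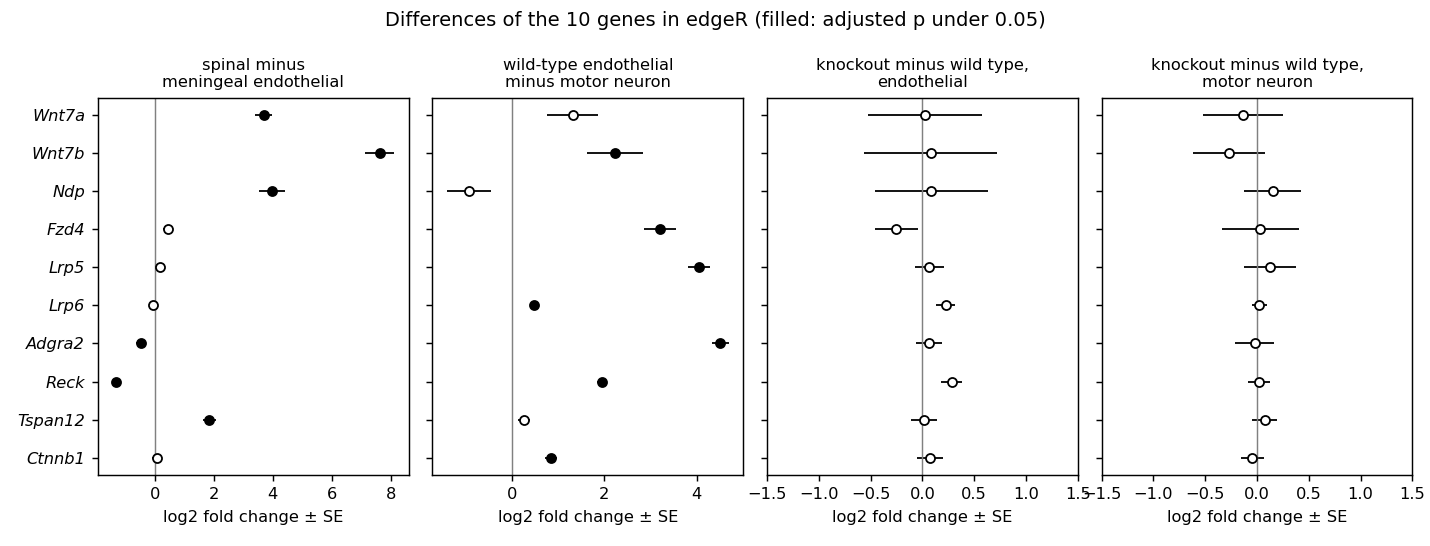
Log2 fold change with its SE (x axis) of each of the 10 genes in edgeR for 4 comparisons, with filled points at an adjusted p under 0.05 and a scale of its own in each of the left 2 panels. Ligands stand to the right between regions, receptor genes stand to the right between cell types, and all points of the knockout panels are open and near 0 with wide bars for the ligands.

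Other genes of the pathway placed the 10 in context, with lists written down with results on these samples known. Their counts stand against the shares of all genes that passed, 47.8% between regions (24.8% higher, 23% lower) and 64.8% between cell types (33.8% higher, 31% lower). Of 17 other Wnt ligands, 9 were tested between regions, and 1 was higher in the cord, 7 were lower and 1 did not pass, with a median log2 fold change of -4.37. Wnt3 rose by 2.42 ± 0.54, while Wnt6 (-5.40 ± 0.62), Wnt2b (-5.00 ± 0.36) and Wnt16 (-4.81 ± 0.53) fell. Wnt7a and Wnt7b thus had the sign of Wnt3 and the opposite sign of these others. Between cell types 8 of 12 tested were higher in endothelial libraries, among them Wnt6 (6.59 ± 0.42), Wnt9a (5.51 ± 0.26) and Wnt5b (4.39 ± 0.22), and only Wnt3 was lower (-2.12 ± 0.48). The 9 meningeal fibroblast markers had median log2 fold changes of -3.67 between regions and 6.66 between cell types. The part of fibroblast RNA in these differences, and in those of the Frizzled, R-spondin, turnover and inhibitor genes below, was not tested.

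Of 9 other Frizzled genes, 4 were higher and 3 lower in the cord and 2 did not pass. Fzd9 (2.81 ± 0.32), Fzd3 (1.64 ± 0.21) and Fzd5 (1.24 ± 0.25) rose, and Fzd10 (-1.49 ± 0.22), Fzd2 (-1.20 ± 0.25) and Fzd7 (-0.86 ± 0.31) fell. Between cell types, where 64.8% of all genes passed and 33.8% were higher, 8 of the 9 were higher in endothelial libraries, led by Fzd6 (5.94 ± 0.42) and Fzd7 (3.61 ± 0.19), and Fzd3 was lower (-1.33 ± 0.33).

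Genes for Wnt release, R-spondins and receptor turnover were 2 higher and 6 lower in the cord of 11 tested (median -0.88), when 24.8% of all genes were higher and 23% lower. The R-spondins, which raise Wnt signalling by sparing its receptors, fell by 5.04 ± 0.59 for Rspo2 and by 3.49 ± 0.36 for Rspo3, and the receptor-removing ligase gene Rnf43 fell by 3.20 ± 0.33. Lgr5, an R-spondin receptor, rose by 2.45 ± 0.48, as did Porcn, which acylates Wnts (0.52 ± 0.19). Of the secreted inhibitors 1 of 11 was higher and 7 were lower (median -1.496). Sfrp2 rose by 3.23 ± 0.26, and Sfrp5 (-5.27 ± 0.60), Sostdc1 (-4.37 ± 0.43) and Wif1 (-2.61 ± 0.30) fell. Between cell types 8 of 12 genes of release and turnover were higher in endothelial libraries and 2 lower, with Wls, the Wnt carrier, at 4.88 ± 0.29 and Porcn at -1.86 ± 0.15. Of the inhibitors 9 of 12 were higher and 1 lower, with Notum at 6.33 ± 0.53 and Sfrp4 at -1.98 ± 0.43. In the test of the ventral against the whole-cord difference, the inhibitor genes Sfrp2 (1.32 ± 0.17) and Dkk3 (1.20 ± 0.16) passed (edgeR adjusted p = 0.0294 each). That test called 0.547% of all genes, and with batch as a block 0 of the 11 inhibitor genes tested passed. Dissection and batch cannot be told apart there.

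The intracellular genes were evenly split between regions, with 5 higher, 5 lower and 9 not passing of 19, and a median of 0.01. Apc, a scaffold of the complex that degrades beta-catenin, was higher by 1.12 ± 0.13 and its kinase gene Gsk3b by 0.58 ± 0.11, whereas the repressor Tcf7l1 was lower (-0.66 ± 0.14). Between cell types 7 were higher in endothelial libraries and 9 lower. The DNA-binding partners of beta-catenin led the higher side, with Tcf7 at 4.75 ± 0.20, Lef1 at 4.66 ± 0.39 and Tcf7l2 at 4.06 ± 0.40, and the degradation genes Apc (-1.47 ± 0.18), Gsk3b (-1.16 ± 0.12) and Btrc (-0.97 ± 0.19) were lower.

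Of 14 genes known as targets of barrier beta-catenin signalling, 10 were higher in the cord, 2 were lower and 2 did not pass, with a median of 1.73, when 47.8% of all genes passed and 24.8% were higher. Mfsd2a, the lipid transporter of barrier endothelium, was higher by 4.49 ± 0.25, Spock2 by 3.20 ± 0.23 and the transcription factor gene Foxq1 by 2.73 ± 0.23. The general Wnt targets Tnfrsf19 (-1.30 ± 0.16) and Axin2 (-0.97 ± 0.14) were lower, as Reck was. Pericyte and endothelial markers were higher in the same libraries, and their part in these counts was not tested. Against motor neurons, 13 of the 14 were higher in endothelial libraries, led by Foxf2 (6.15 ± 0.39), Cldn5 (6.08 ± 0.51) and Foxq1 (5.60 ± 0.55), and 1 did not pass, in a comparison where 64.8% of all genes passed. In neither knockout comparison did a gene of these lists pass without the block. With it, 4 passed in endothelial cells, when 0.989% of all genes passed. They are named here after their values were seen. Fzd1 (0.49 ± 0.09), Fzd2 (0.38 ± 0.09) and the inhibitor gene Dkk2 (0.88 ± 0.11) were higher in the knockout, and the tight junction gene Cldn5 (-0.70 ± 0.09) was lower. Without the block, only 1 of 10 endothelial markers had a log2 fold change above 0 there, with a median of -0.43. Their sums were 508.0 to 924.3 CPM in the knockout and 727.6 to 1128 CPM in wild type. The part of endothelial RNA in the Cldn5 difference was not tested.

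The genes whose levels ran most like a member across libraries were found by Pearson's r of log2 CPM, among genes averaging at least 50 counts per library. These values describe libraries that fall into separate groups, so they mainly rank genes by a shared difference between groups. Over the 10 regional libraries the closest to Wnt7a was Sox2, a transcription factor gene of neural progenitors (r = 0.996), and the closest to Wnt7b was Fam181a (r = 0.997), followed by Ncan, which encodes a neural matrix proteoglycan. Ndp was closest to Anks1b (r = 0.997), Reck to Tle1 (r = 0.998) and Adgra2 to Wbp1l (r = 0.971). Over the 11 libraries of the knockout series Wnt7a was closest to Sox1, another progenitor factor gene (r = 0.989), Wnt7b to Ttyh1 (r = 0.989) and Ndp to Ebf2 (r = 0.977). There Adgra2 was closest to Inppl1 (r = 0.999) and Reck to Arnt (r = 0.998).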

How the data were processed

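The deposited values are raw counts per gene. The authors made them with featureCounts 1.6.4 with the GENCODE basic annotation, summing exons per gene name, per the file headers. The submitters' processing notes also name Trimmomatic 0.39, STAR 2.5.3a and the build mm10 (GRCm38). Per the file headers, the knockout series was counted without strand and the regional series as read pairs with a reverse strand setting, so levels were never compared between series. Reads with several alignments or overlapping several genes were not set to be counted.

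From the counts, edgeR 4.0.16 in R 4.3.3 gave TMM-scaled CPM and RPKM over merged exon length, and its quasi-likelihood F-test was run on all genes after filterByExpr at a minimum count of 10, with Benjamini-Hochberg adjusted p under 0.05 as the call. The SE is the log2 fold change divided by the square root of F. Knockout tests were run per cell type, the cell types and the difference of knockout effects in 1 fit of 11 libraries, and the regions 5 against 5. The fits were tested on simulated data first. Alternatives were DESeq2 1.42.0, RLE scaling, no filter, a mean of at least 5 CPM, batch as a block, subsets of the libraries, and each library left out.

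Libraries of 1 batch number were taken as paired in the within-batch differences and in the fits with batch as a block, since the labels call the number a batch. The main fits used group means only and did not pair libraries. The deviations of log2 levels from group means correlated between same-numbered libraries at r = 0.397 and 0.468 in endothelial, 0.279, 0.318 and 0.271 in motor neuron, and -0.273, -0.032, 0.303, 0.169 and 0.038 in regional pairs. Between differently numbered libraries r was -0.468 to 0.130 in endothelial, -0.285 to -0.042 in motor neuron and -0.340 to 0.331 in regional pairs. Regional pairs of 1 number were thus not set apart, and that pairing rests on the labels. Deviations from a group mean cancel out within the group, so in small groups high values for the same number lower those for other numbers. The gap between same and other numbers was thus partly set by the calculation. The 2 wild-type endothelial libraries mirror each other around their mean, so their values are not independent. Between wild-type cell types r was 0.248 and 0.251 for the same number and -0.251 to 0.0015 for others. The genes, lists and marker sets were chosen with earlier results of these data known. Genes of the pathway lists were named by a rule, the 3 largest changes in each direction among those that passed, of which some are given. The marker sum without Nes was added after seeing the data.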

Additional observations from a re-analysis of the deposited data

How the results depend on the processing

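Tests on 2 to 5 libraries a group limit what can be seen, and ligands at under 10 counts in some libraries are the least precise. Of 343 gene-level results under other settings, 322 kept their direction and their side of the threshold, 13 passed that had not, 2 no longer passed and 6 reversed. The reversed log2 values, none called, were -0.0015 for Tspan12 in the endothelial knockout with no filter, -0.0088 for Fzd4 in the motor neuron knockout with the replicate block, 0.076 for Ndp and 0.087 for Lrp5 in the difference of knockout effects with the replicate block, 0.15 for Lrp6 between regions in batches 1 to 3 and -0.13 for Ctnnb1 in batches 4 and 5. The replicate block changed no other call of the 10 genes than those given in the report.

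Genes called in the endothelial knockout were 0 in the main test, 30 with DESeq2, 2 with no filter, 180 with the block and 1 in 1 fit of the series. In motor neurons they were 2, and 4 with DESeq2 or no filter, 0 at 5 CPM, 6 with the block and 1 in 1 fit. For the difference of knockout effects they were 0, and 1 with DESeq2. For the ventral against whole-cord difference they were 98, and 1210 with DESeq2, 305 with RLE scaling, 1780 with no filter, 229 at 5 CPM and 4 with the block, of which DESeq2 called 1 and no filter 3 of the 10 genes. There the median log2 value was 0.06 over the genes kept by the filter of the main test. It was -0.08 in DESeq2, which was run without that filter, and 0.004 in edgeR with no filter. The cause of these changes was not tested.

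With 1 library left out, genes called ranged from 0 to 1 in each knockout test, 0 to 1190 for the ventral against whole-cord difference, 7134 to 7904 between regions and 10113 to 12574 between cell types, and of the 10 genes 5 to 6 and 7 to 8 passed in the last 2. Ranges for genes whose sign changed, none called, follow. In the endothelial knockout the log2 fold changes that reversed ranged from -0.017 to 0.15 for Adgra2, -0.52 to 0.081 for Fzd4, -0.035 to 0.17 for Lrp5, -0.47 to 1.02 for Ndp, -0.028 to 0.069 for Tspan12, -0.63 to 1.27 for Wnt7a and -0.61 to 1.47 for Wnt7b. In the motor neuron knockout the log2 fold changes that reversed ranged from -0.13 to 0.14 for Adgra2, -0.14 to 0.0065 for Ctnnb1, -0.41 to 0.28 for Fzd4, -0.078 to 0.28 for Lrp5, -0.021 to 0.062 for Lrp6, -0.044 to 0.32 for Ndp, -0.059 to 0.085 for Reck, -0.50 to 0.17 for Wnt7a and -0.58 to 0.058 for Wnt7b. For the difference of knockout effects the log2 fold changes that reversed ranged from -0.084 to 0.19 for Adgra2, -0.54 to 0.15 for Fzd4, -0.22 to 0.14 for Lrp5, -0.65 to 0.87 for Ndp, -0.51 to 1.40 for Wnt7a and -0.36 to 1.74 for Wnt7b. Ndp ranged from -2.02 to 0.59 for the ventral against whole-cord difference, and Ctnnb1 from -0.063 to 0.13 between regions.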
